A study of Mus musculus with 4 samples.

Results

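Neurotrophins are secreted growth factors that neurons use to control survival, wiring and synaptic strength, and this account follows their transcripts in RNA recovered with an antibody against CPEB2. The genes were those whose symbol on the array is Bdnf, Ntf3, Ngfr, Ntrk2, Ntrk3, Sort1 or Vgf, which gave 7 of 24185 gene symbols. They were represented by 14 of 55681 distinct 60-base probes, and each probe was compared on its own because several genes carry probes for different transcript forms. Bdnf, Ntf3, Ngfr and Vgf had 1 probe each, Ntrk2 and Sort1 had 3 and Ntrk3 had 4. The RNA came from corticohippocampal lysate of male C57BL/6 mice aged 8 weeks with no genetic change or treatment named in the labels. In RNA immunoprecipitation (RIP), beads carrying an antibody are incubated with lysate and the RNA held on them is extracted. CPEB2 IgG and control IgG were each used in 2 independent experiments, and the lysate was divided between both antibodies in each, so the 4 one-color arrays form 2 pairs. One description field of these samples gives CPEB3 IgG as the antibody, but titles, treatment text and study all give CPEB2. Input RNA is not analysed here, so the share of a transcript in the lysate that each antibody held is not known.

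BDNF and NT-3, encoded by Bdnf and Ntf3, are made as proproteins and act through receptor tyrosine kinases, TrkB (Ntrk2) for BDNF and TrkC (Ntrk3) for NT-3. Both receptor genes also give truncated forms that bind the ligand but lack the kinase domain. The p75 neurotrophin receptor (p75NTR, Ngfr) and sortilin (Sort1) bind the proproteins, and sortilin also directs proBDNF into the regulated secretory pathway. Vgf encodes a secreted peptide precursor whose transcription is induced by neurotrophins. CPEB2 is an RNA-binding protein that regulates translation through the cytoplasmic polyadenylation element (CPE), a short U-rich sequence in the 3′ untranslated region.

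The probes of one gene read different stretches of sequence, so their letters are given first, 5′ to 3′ in the sense of the mRNA. Those of Ntrk2, Ntrk3 and Sort1 are shown because the probes of these genes differed in their change, and that of Vgf because it ends near a polyadenylation signal. Genome positions follow the mm9 coordinates in the array files. No mm9 gene model was used here, so exons and untranslated regions were not assigned beyond the transcripts that the annotation lists for a probe. All 60 bases are given for 5 probes and the last 30 bases for the others.

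For Ntrk2, on the plus strand of chromosome 13, A_55_P2006792 (chr13:58979563-58979622) was annotated to the full-length transcript NM_001025074 and the truncated transcript NM_008745, A_65_P04961 (chr13:59038046-59038105) to the truncated one only, and A_51_P393454 (chr13:59230936-59230995) to the full-length one only.
A_55_P2006792, both forms: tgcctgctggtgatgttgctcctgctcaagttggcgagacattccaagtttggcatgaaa
A_65_P04961, truncated, last 30 bases: atatgaactcacaaacaaataagaagtagc
A_51_P393454, full-length, last 30 bases: aactgttgttccagctggggtgtctgatta

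For Ntrk3, on the minus strand of chromosome 7, A_55_P2006808 (chr7:85447515-85447574) and A_52_P500274 (chr7:85445908-85445967) were annotated to the truncated transcript NM_182809, and A_55_P2056533 (chr7:85392044-85392103) and A_66_P118329 (chr7:85337455-85337514) to the kinase transcript NM_008746. The capitals mark a TAA at the 3′ end of the first of them, which closes an open frame.
A_55_P2006808, truncated: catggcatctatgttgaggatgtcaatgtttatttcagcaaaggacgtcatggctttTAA
A_52_P500274, truncated, last 30 bases: agagtgacttccacagtgtcactttaggta
A_55_P2056533, kinase form: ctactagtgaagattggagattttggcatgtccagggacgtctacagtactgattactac
A_66_P118329, kinase form: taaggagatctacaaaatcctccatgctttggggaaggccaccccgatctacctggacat

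For Sort1, on the plus strand of chromosome 3, A_51_P517145 (chr3:108157150-108159198) was annotated to NM_019972 and its coordinates cover more than its own length, so it crosses an intron. A_55_P2076683 (chr3:108158404-108158463), which lies within that span, was annotated to NM_001271599 only, and A_52_P590396 (chr3:108164349-108164408) to both transcripts. Capitals in the last 30 bases of A_52_P590396 and of the Vgf probe A_55_P2085060 (chr5:137509153-137509212, plus strand) mark the polyadenylation signal AATAAA.
Sort1 A_51_P517145: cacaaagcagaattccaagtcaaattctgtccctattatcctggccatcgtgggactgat
Sort1 A_55_P2076683, last 30 bases: gcctcctcttggatacactgaaaacacaca
Sort1 A_52_P590396, last 30 bases: atatttgcaatatttgggttagaAATAAAc
Vgf A_55_P2085060, last 30 bases: tagttttgctaagaAATAAAagtgactatt

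Of the 14 probes, 7 were higher and 1 was lower with CPEB2 IgG, and 6 did not pass the test (limma on log2 signals after subtraction of each array's 75th percentile, experiment as a block, Benjamini-Hochberg adjusted p under 0.05 over 41134 tested probes). Over all tested probes, 12.7% were higher and 14.8% were lower. The probes called higher came from 6 of the 7 genes, and Ngfr was the gene with none. Sort1 had a probe called in each direction. Both CPEB2 IgG arrays lay above both control IgG arrays for 9 probes, against 26.4% of all tested probes, and below both for 3, against 39.2%. All 14 probes were well above background on all 4 arrays. The study selected transcripts by raw signal, enrichment and a CPE. Its limits of 1.5-fold and 1000, read here as the mean fold of both experiments and the unscaled signal of either CPEB2 IgG array, held for 7 probes, against 7.68% of all probes with a value on each array, and the CPE was not applied. By the brightest probe of each gene, the median log2 change of the 7 genes was 1.56, and that of 19696 genes was -0.11. When dim probes were not filtered out, limma called 0 probes of any gene, with the lowest adjusted p at 0.0961, while 9 of these 14 probes and 16093 probes in all had an unadjusted p under 0.05.

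**Figure D1:**
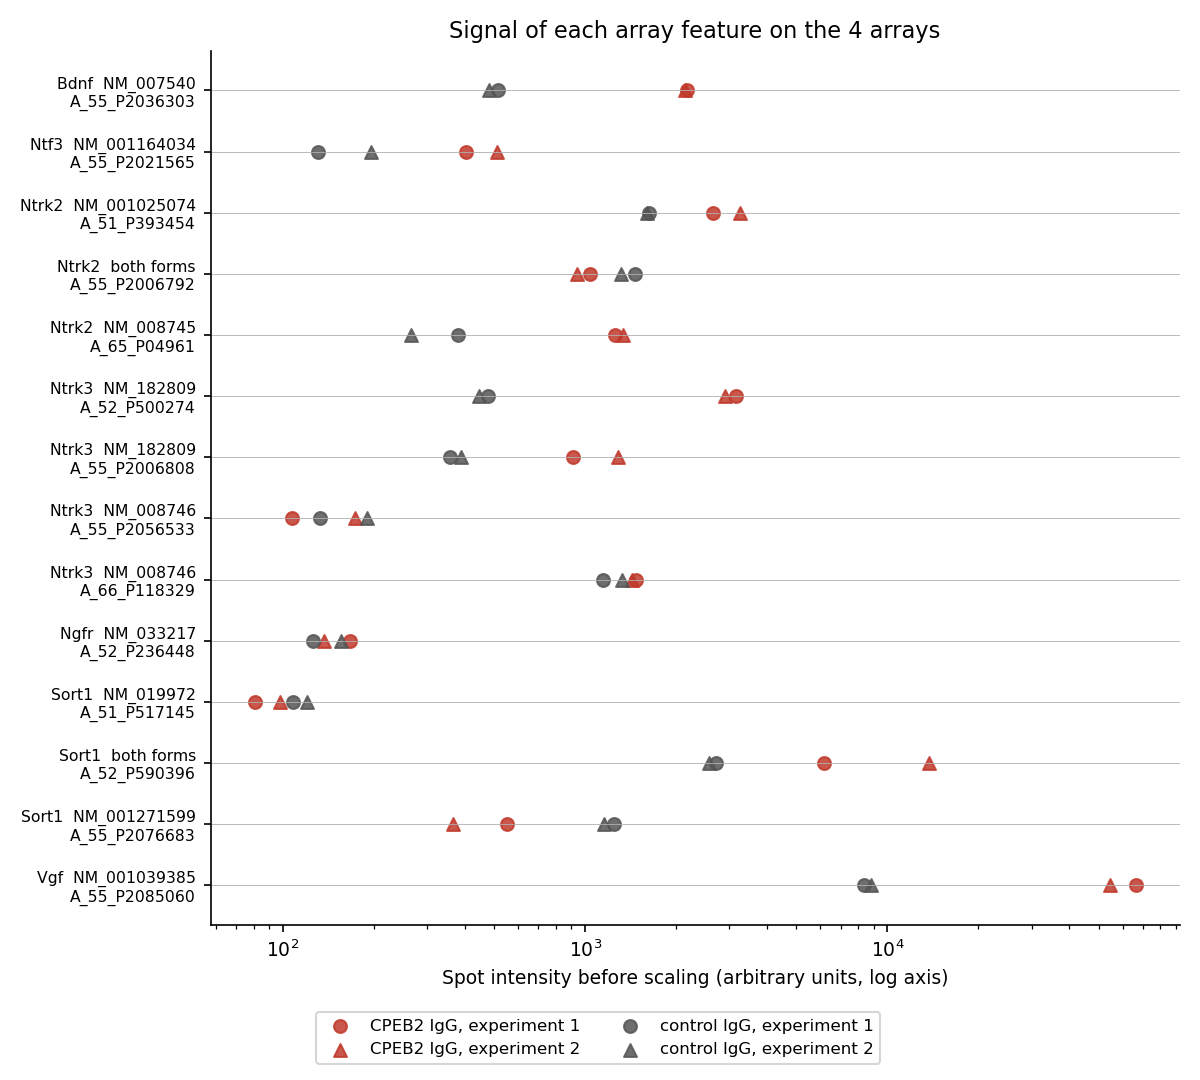
Raw spot intensity of each of the 14 probes (rows, with the transcript each is annotated to) on a log axis in arbitrary units, 1 point per array. Red points are CPEB2 IgG and gray points control IgG, with circles for experiment 1 and triangles for experiment 2, and the antibodies overlap for Ngfr and for the Ntrk3 probe A_55_P2056533.

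Both ligands measured by these probes were higher with CPEB2 IgG. The Bdnf probe A_55_P2036303 (NM_007540 and other Bdnf transcripts, chr2:109566961-109567020, plus strand) gave raw signals of 2177 and 2146 on the CPEB2 IgG arrays and 514 and 481 on the control IgG arrays. The arrays of each antibody lay close together and far from those of the other. Its log2 change was 2.17 ± 0.011 (SD, n = 2 experiments), a 4.51-fold difference (limma adjusted p = 0.00795), at the 96.6th percentile of all tested probes. The Ntf3 probe A_55_P2021565 (NM_001164034, NM_001164035 and NM_008742, chr6:126051431-126051490, minus strand) gave raw signals of 404 and 510 on the CPEB2 IgG arrays and 131 and 195 on the control IgG arrays. These groups did not overlap, but every signal stayed below the study's limit of 1000. The log2 change was 1.56 ± 0.21 (SD, n = 2), or 2.94-fold (limma adjusted p = 0.0161). With single arrays left out, which required a fit without the experiment term, the Ntf3 adjusted p was 0.0567 without CPEB2 IgG array 1, 0.105 without CPEB2 IgG array 2 and 0.104 without control IgG array 1, whereas Bdnf stayed between 0.0231 and 0.0436.

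TrkB transcripts differed by probe. For the truncated form, A_65_P04961 gave raw signals of 1257 and 1336 on the CPEB2 IgG arrays and 379 and 265 on the control IgG arrays, so that the groups were well apart. Its log2 change was 2.09 ± 0.385 (SD, n = 2), a 4.24-fold difference (limma adjusted p = 0.00972). For the full-length form, A_51_P393454 gave raw signals of 2638 and 3251 on the CPEB2 IgG arrays and 1627 and 1596 on the control IgG arrays. Both CPEB2 IgG arrays were higher, with a log2 change of 0.92 ± 0.19 (SD, n = 2), but the adjusted p was 0.0656 in limma. This probe was spotted 10 times on each array, and its spots varied by 1.53% to 3.32% (coefficient of variation), which is technical spread within an array. Over 13 alternatives the adjusted p ranged from 0.0015 to 0.133, and the test was not passed in 5 of them, with 0.0699 after quantile normalization, 0.0727 with no scaling, 0.0971 with the percentile taken over probes above background on all arrays, 0.0662 with marked spots kept and 0.133 with no filter. It was passed in the others, at 0.0213 after median centring, 0.0222 after centring within GC bins and 0.0455 without the block. With single arrays left out it was 0.0482 without CPEB2 IgG array 1, 0.107 without CPEB2 IgG array 2, 0.207 without control IgG array 1 and 0.184 without control IgG array 2. The probe shared by both forms, A_55_P2006792, gave raw signals of 1040 and 941 on the CPEB2 IgG arrays and 1463 and 1316 on the control IgG arrays. Here both CPEB2 IgG arrays were the lower ones, with a log2 change of -0.44 ± 0.037 (SD, n = 2; limma adjusted p = 0.297). Centred within GC bins this change was 0.12 (adjusted p = 0.8).

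TrkC probes also differed according to the form they are annotated to, and in both experiments. The truncated form's probe A_52_P500274 gave raw signals of 3159 and 2900 on the CPEB2 IgG arrays and 476 and 446 on the control IgG arrays. The separation between antibodies was many times the spread within them, with a log2 change of 2.77 ± 0.064 (SD, n = 2) or 6.82-fold (limma adjusted p = 0.00679). The other probe of the truncated form, A_55_P2006808, gave raw signals of 908 and 1282 on the CPEB2 IgG arrays and 357 and 389 on the control IgG arrays. It was higher too, by 1.59 ± 0.223 on the log2 scale (SD, n = 2; limma adjusted p = 0.0155), but lost that call without CPEB2 IgG array 2 (adjusted p = 0.055), without control IgG array 1 (0.071) and without control IgG array 2 (0.0511). Among the probes of the kinase form, A_66_P118329 gave raw signals of 1468 and 1425 on the CPEB2 IgG arrays and 1149 and 1324 on the control IgG arrays. Its groups did not overlap but were close, and the log2 change of 0.28 ± 0.218 (SD, n = 2) did not pass (limma adjusted p = 0.506). The second of them, A_55_P2056533, gave raw signals of 107 and 173 on the CPEB2 IgG arrays and 133 and 190 on the control IgG arrays. These values overlapped, with a log2 change of -0.17 ± 0.082 (SD, n = 2; limma adjusted p = 0.688).

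Among the receptors that bind proneurotrophins, the Ngfr probe A_52_P236448 (NM_033217, chr11:95430211-95430270, minus strand) gave raw signals of 167 and 137 on the CPEB2 IgG arrays and 126 and 155 on the control IgG arrays. The antibodies overlapped, and the log2 change of 0.52 in experiment 1 and -0.16 in experiment 2 gave 0.18 ± 0.48 (SD, n = 2; limma adjusted p = 0.704). Its 10 spots on each array varied by 12.4% to 30.1%. The 95% interval of its change was -0.60 to 0.97, and changes within it were not resolved.

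Sortilin had probes in both directions. A_52_P590396, shared by both annotated transcripts, gave raw signals of 6165 and 13751 on the CPEB2 IgG arrays and 2718 and 2567 on the control IgG arrays. Its CPEB2 IgG arrays were the least alike of the 14 probes, and its log2 change of 1.86 ± 0.835 (SD, n = 2) passed the test (3.62-fold, limma adjusted p = 0.0209). A_55_P2076683, annotated to NM_001271599 only, gave raw signals of 551 and 365 on the CPEB2 IgG arrays and 1241 and 1155 on the control IgG arrays. It was lower by the test, with a log2 change of -1.36 ± 0.391 (SD, n = 2; limma adjusted p = 0.0266). The intron-crossing probe A_51_P517145 gave raw signals of 80.5 and 97.8 on the CPEB2 IgG arrays and 108 and 120 on the control IgG arrays, a log2 change of -0.31 ± 0.052 (SD, n = 2; limma adjusted p = 0.454). Each call was lost without any one of 3 arrays, at adjusted p = 0.0527 and 0.0656 without CPEB2 IgG array 2, 0.0752 and 0.102 without control IgG array 1 and 0.0747 and 0.0892 without control IgG array 2 for A_52_P590396 and A_55_P2076683. Centring within GC bins gave A_55_P2076683 a log2 change of -0.86 (adjusted p = 0.0573).

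Vgf showed the largest mean change of the 14 probes with this scaling, although the Ntrk3 probe A_52_P500274 lay above it in experiment 2 (2.73 against 2.65) and after centring within GC bins (3.00 against 2.67). A_55_P2085060 (NM_001039385) gave raw signals of 66291 and 54431 on the CPEB2 IgG arrays and 8343 and 8834 on the control IgG arrays. The antibodies were far apart in both experiments, with a log2 change of 2.86 ± 0.302 (SD, n = 2), a 7.26-fold difference (limma adjusted p = 0.00679). Without single arrays its adjusted p ranged from 0.0159 to 0.0436.

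**Figure D2:**
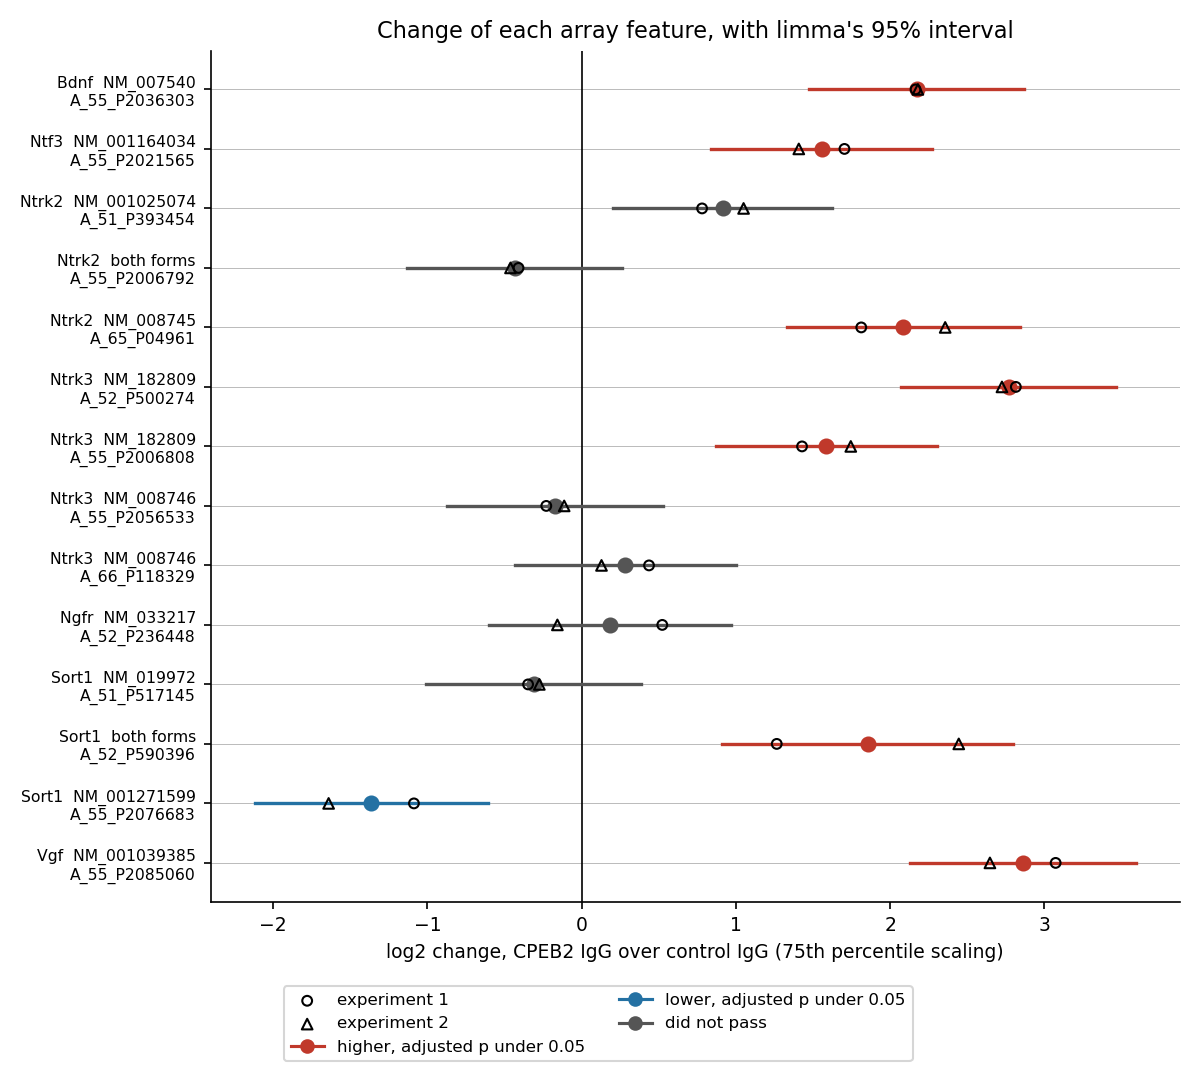
Log2 change of each probe, CPEB2 IgG over control IgG, with limma's 95% interval (filled point and line) and the values of experiments 1 and 2 (open circle and triangle). Red marks 7 probes called higher, blue 1 called lower and gray 6 that did not pass, and the highest are Vgf at 2.86 and the Ntrk3 probe A_52_P500274 at 2.77.

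Whether probes of one gene differed in their change was tested directly, on the difference of their log2 values on each array, over 8881 pairs of probes with the same gene symbol. Of the 12 pairs within Ntrk2, Ntrk3 and Sort1, 10 differed (limma adjusted p under 0.05), against 25.7% of all pairs tested. Pairs of one gene share probes and arrays and are not independent, so a single probe can make several of them differ. Within Ntrk3, the truncated form's A_52_P500274 exceeded the kinase form's A_66_P118329 by 2.49 (SE 0.264, limma adjusted p = 0.0194) and A_55_P2056533 by 2.94 (SE 0.263, adjusted p = 0.0193). The other truncated-form probe exceeded them by 1.30 (adjusted p = 0.047) and 1.76 (adjusted p = 0.0233). All 4 comparisons between probes of the forms thus went the same way, but they share probes and arrays and are not independent. Probes of the forms also differ in position along the gene, so form and position cannot be told apart. The probes of the truncated form also differed from each other, by 1.18 (adjusted p = 0.0484, or 0.0552 without the replicate block), whereas the difference of 0.46 between those of the kinase form did not pass, with a 95% interval of -0.31 to 1.22 (adjusted p = 0.297). Within Ntrk2, the truncated form's probe exceeded the shared probe by 2.52 (SE 0.297, adjusted p = 0.0195) and the full-length probe by 1.17 (SE 0.267, adjusted p = 0.0461), and the full-length probe exceeded the shared one by 1.35 (SE 0.27, adjusted p = 0.036). In Ntrk2 the shared probe thus lay below the probes of both forms, so the changes are read by probe and not by form. Within Sort1, A_52_P590396 exceeded A_55_P2076683 by 3.22 (SE 0.499, adjusted p = 0.0243). The size of that difference varied, with 2.352 in experiment 1 and 4.085 in experiment 2. A_52_P590396 also exceeded A_51_P517145, by 2.17 (SE 0.375, adjusted p = 0.0285). A_51_P517145 and A_55_P2076683 differed by 1.05, with a 95% interval of 0.23 to 1.88 and an adjusted p of 0.0732. After centring within GC bins 8 pairs differed, and the truncated against the full-length probe of Ntrk2 (0.67, adjusted p = 0.125) and A_55_P2006808 against A_66_P118329 of Ntrk3 (0.86, adjusted p = 0.0807) no longer did. The 10 pairs became 7 without CPEB2 IgG array 1, 0 without CPEB2 IgG array 2 (where limma called 0 of 8881 pairs, and 10 of the 12 had an unadjusted p under 0.05), 3 without control IgG array 1 and 2 without control IgG array 2.

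Along the genes, the order of all probes of a gene did not give one pattern, whereas the order within a transcript did. In Ntrk2 the shared probe lay first, the truncated form's probe 58.5 kb after it and the full-length probe 251.4 kb after it, with log2 changes of -0.44, 2.09 and 0.92. In Ntrk3 the truncated form's probes came first, 1.6 kb apart, and the kinase form's probes lay 55.5 kb and 110.1 kb after the first, with changes of 1.59, 2.77, -0.17 and 0.28. In Sort1 the probe with the increase lay last, 7.2 kb after the intron-crossing probe. Among probes annotated to the same transcript, the later probe had the higher log2 change in each case. For Ntrk2 the values were -0.44 and 0.92 (full-length) and -0.44 and 2.09 (truncated). For Ntrk3 they were 1.59 and 2.77 (truncated) and -0.17 and 0.28 (kinase form, a difference that did not pass). For Sort1 they were -0.31 and 1.86 (NM_019972) and -1.36 and 1.86 (NM_001271599). The part that distance from the 3′ end of each transcript takes in these values was not tested.

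**Figure D3:**
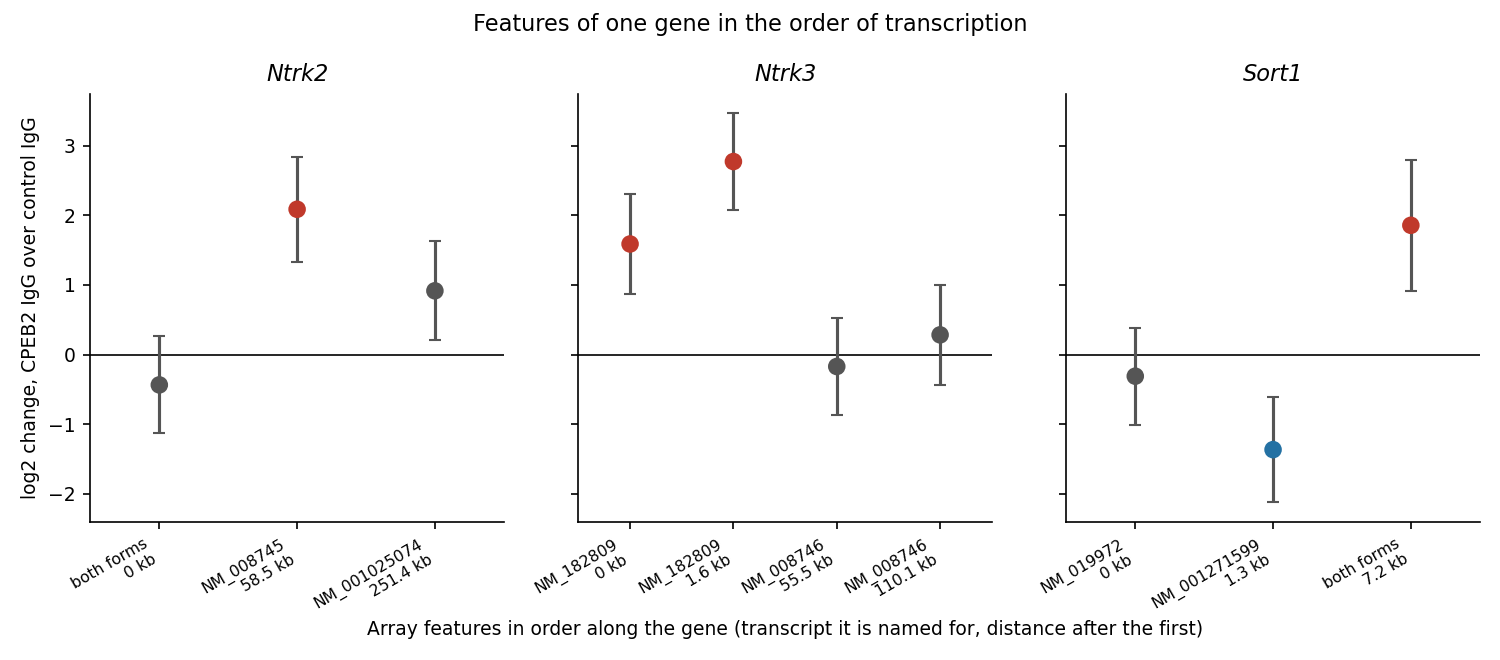
Log2 change with limma's 95% interval (vertical axis) for the probes of Ntrk2, Ntrk3 and Sort1, placed in order of transcription and labelled with their transcript and the distance after the first probe in kilobases. Red points were called higher, blue lower and gray did not pass, and the truncated-form probes lie above the kinase-form probes in Ntrk2 and Ntrk3.

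The letters of the probes were then searched for shared features. A CPE, spelled TTTTAT or TTTTAAT, was present in 0 of the 14 probes and in 4.54% of all 55681 probes on the sense strand, and its reverse complement in 1 and in 6.5%. These 60-base windows are not the 3′ untranslated regions, so no match says only that these letters are not in these windows. AATAAA was present in 2 probes, those of Vgf and Sort1 A_52_P590396, against 10.1% of all probes, and its reverse complement in 1 against 3.74%. In the Sort1 probe it ends 1 base before the end of the probe and in the Vgf probe 10 bases before it. The longest stretch that probes of different genes in this group shared was 9 bases, between A_55_P2006792 of Ntrk2 and A_55_P2056533 of Ntrk3.

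Base composition moved with the change. The 7 probes called higher had GC contents from 26.7% to 43.3%, the 6 that did not pass from 43.3% to 51.7%, and the one called lower 53.3%. Over all tested probes the median log2 change was 1.11 below 30% GC, 0.21 from 30% to 40%, -0.27 from 40% to 50% and -0.49 from 50% to 60%, and 44.1%, 24.4%, 8.7% and 3.24% of the probes in those ranges were called higher. Across 41134 probes, which share the 4 arrays and are not independent, the Spearman correlation of GC content and log2 change was -0.33. When each array was centred within bins of equal GC content, the 7 probes stayed higher, with log2 changes of 1.67 to 3.00 and adjusted p of 0.000989 to 0.00764, A_51_P393454 of Ntrk2 joined them and 0 probes were lower. The part of base composition in the differences within genes was tested only by that centring.

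**Figure D4:**
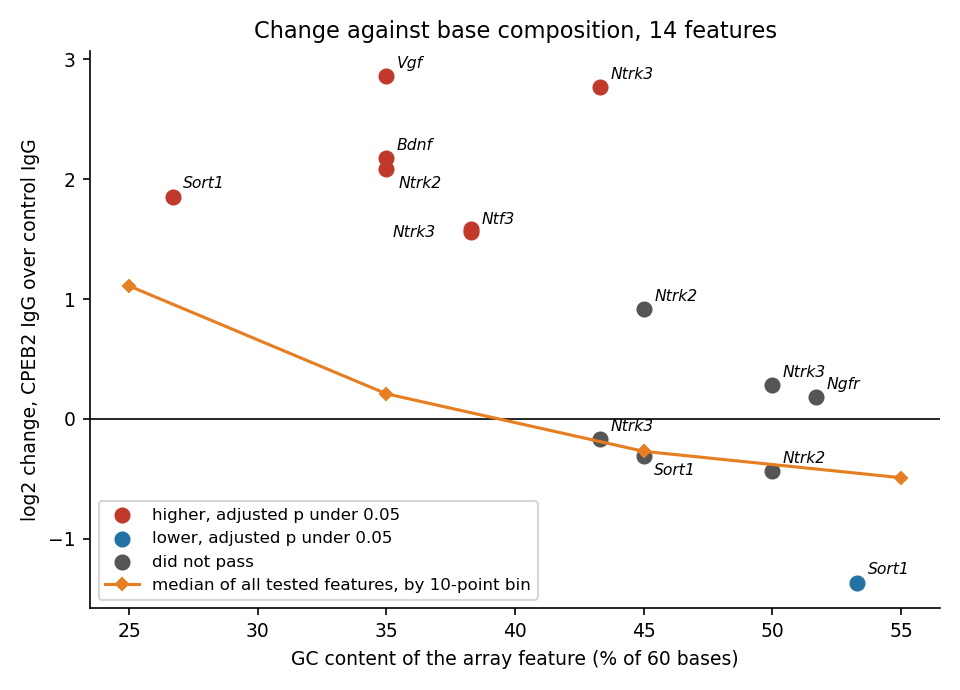
Log2 change of each of the 14 probes (vertical axis) against the GC content of its 60 bases in percent (horizontal axis), labelled by gene and colored by the test, with the median of all tested probes in each 10-point range as an orange line. All 7 probes called higher lie above the line, and those at 50% GC or more lie at 0.28 or below.

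The other genes of neurotrophin signalling were taken from a list of 49 genes and read by their brightest probe. Several have further tested probes that are not reported here, with 3 tested for Kidins220 and Arhgdia and 2 for Sorl1, Sorcs2 and Creb1. A brightest probe need not stand for its gene, as that of Ntrk3 was at 0.28 while its truncated-form probes were at 2.77 and 1.59. Of these, 16 were higher with CPEB2 IgG, 7 were lower and 26 did not pass, with a median log2 change of 0.60, whereas of 19696 genes 17.9% were higher and 16.3% were lower. Without control IgG array 1 or array 2 the list gave 7 higher and 3 lower, and without CPEB2 IgG array 2 it gave 9 and 5. Among the scalings, background correction and filters it gave 16 to 23 higher and 6 to 8 lower, with 23 and 6 after median centring and 22 and 8 after normexp background correction, except for 0 of each with no filter. Ntf5, another ligand of TrkB, did not pass, with a log2 change of -0.05 (limma adjusted p = 0.912). Of 5 further receptors, 3 of the sortilin family were higher, Sorcs3 by 3.34 (SE 0.283, limma adjusted p = 0.00679), Sorl1 by 2.55 (SE 0.357, adjusted p = 0.00929) and Sorcs2, a receptor for proneurotrophins together with p75NTR, by 1.72 (SE 0.289, adjusted p = 0.0132). Sorcs1 was at -0.13 (adjusted p = 0.761).

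In the roles that follow, counts are of few genes and stand beside the 17.9% of all genes called higher and 16.3% called lower, and nothing particular to a role is read from them. Of 9 genes of prohormone processing, 3 were higher and 0 were lower. They were Furin, a convertase that cleaves proneurotrophins, 2.82-fold higher (limma adjusted p = 0.038), with log2 changes of 0.90 in experiment 1 and 2.09 in experiment 2, Plat, the tissue plasminogen activator, with a log2 change of 1.26 (adjusted p = 0.036), and the convertase gene Pcsk7 at 1.06 (adjusted p = 0.042). Of 17 Trk adaptors and effectors, 5 were higher and 3 were lower. The 3 with the largest mean increase were the adaptor Frs3 at 2.72 (SE 0.559, adjusted p = 0.0219), with 1.58 in experiment 1 and 3.85 in experiment 2, the Ras exchange factor Sos2 at 2.61 (SE 0.297, adjusted p = 0.00704) and the adaptor Shc1 at 2.54 (SE 0.35, adjusted p = 0.009). In experiment 1 Frs3 lay below Sos2 (2.37) and Shc1 (2.05). The lowest were Kidins220, a scaffold that binds Trk receptors, at -1.96 (adjusted p = 0.0174), and the SH2 adaptors Sh2b2 at -1.71 (adjusted p = 0.0151) and Sh2b1 at -1.66 (adjusted p = 0.0133).

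Of 10 partners of p75NTR, 2 were higher and 4 were lower, beside 17.9% and 16.3% of all genes. Rtn4r, the Nogo receptor that signals with p75NTR, was higher by 3.84 (SE 0.342, limma adjusted p = 0.00679), with raw signals of 8882 and 19180 against 910 and 987, and its co-receptor Lingo1 by 2.85 (SE 0.404, adjusted p = 0.00946), with 2.16 in experiment 1 and 3.53 in experiment 2. Those lower were Maged1 at -2.48 (SE 0.279, adjusted p = 0.00697), Arhgdia at -1.87 (adjusted p = 0.0121), Ngfrap1 at -1.41 (adjusted p = 0.0244) and Rtn4, which encodes Nogo, the ligand of Rtn4r, at -1.09 (adjusted p = 0.0405). Rtn4 had the smallest change of the 4 and falls outside the rule of at most 3 names per direction, so it was chosen after its value was seen. Of 6 genes for BDNF transcription and transport, 3 were higher and 0 were lower, and among those higher were the transcription factor Creb1 at 1.31 (adjusted p = 0.0237) and its coactivator Crtc1 at 1.33 (adjusted p = 0.0252).

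**Figure D5:**
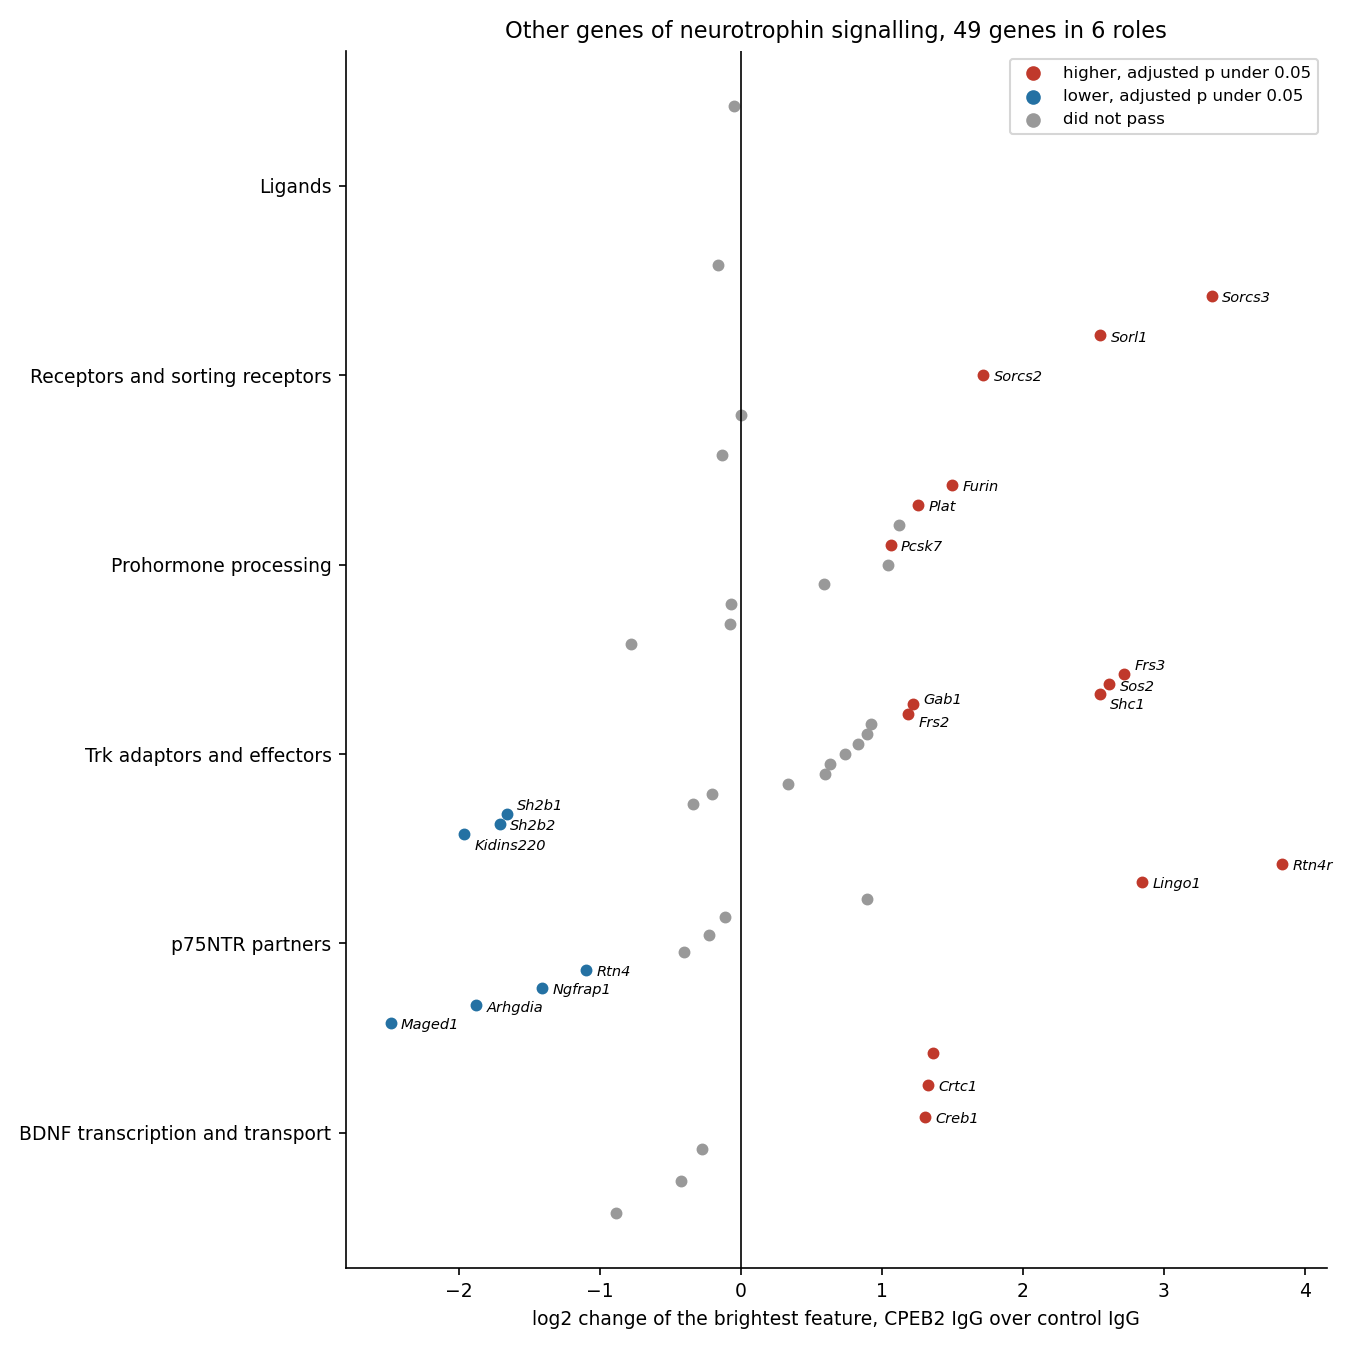
Log2 change of the brightest probe of 49 further genes of neurotrophin signalling (horizontal axis), grouped by role on the vertical axis, 1 point per gene and spread vertically by rank within a role. Red genes were called higher, blue lower and gray did not pass, with Rtn4r highest at 3.84 and Maged1 lowest at -2.48.

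For the arrays as a whole, 68.4% to 74.1% of spots were well above background and 0 were saturated. The antibodies occupied separate positions on one slide, so position and antibody cannot be told apart. Gapdh, the non-target control of the study, was lower by 2.52 on the log2 scale after this scaling and Cpeb2 itself was higher by 2.89 (limma adjusted p = 0.00707 and 0.00679). The Gapdh value is that of the brightest of its 7 tested probes. The balance of calls varied with the scaling, with 46.2% of called probes higher here, 57.3% after median centring, 50.6% after quantile normalization, 42.3% with no scaling and 40.6% with the percentile taken over probes above background on all arrays. Median centring moved the median of all probes by 0.23 and that last setting by -0.11. Of the marker genes for the tissue, all 6 for neurons were well above background on all 4 arrays, with summed raw signals of 115200 to 120400 with CPEB2 IgG and 114600 to 115200 with control IgG, and 0 of 6 passed the test (limma). Other markers did move, as 2 of 3 for microglia were lower (sums of 3856 to 5402 with CPEB2 IgG against 9467 to 11260) and of 4 for astrocytes 1 was higher and 1 lower (sums of 29290 to 31600 against 14380 to 18920), while 0 of 3 for oligodendrocytes (50320 to 51950 against 38560 to 49210) and 0 of 2 for endothelium (862 to 972 against 1167 to 1176) passed. The astrocyte sums with CPEB2 IgG were mostly Slc1a3 (28730 and 26890 against 3302 and 2133 with control IgG). Aldh1l1 was the astrocyte marker called lower (1007 and 600 against 12650 and 9607). Of 5 genes typical of other organs Alb was not tested, being too dim, and the other 4 summed to 634 to 757 against 1029 to 1260, with 1 lower. The part of these cell types in the changes of the neurotrophin genes was not tested.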

How the data were processed

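RNA recovered by RIP with CPEB2 IgG or control IgG was hybridized to 4 Agilent SurePrint G3 Mouse GE arrays. Agilent Feature Extraction 10.5.1.1 output was deposited by the authors for every array, and the values used are its background-corrected spot intensities, not scaled between arrays. Groups came from the sample titles. Control spots and those marked uneven or outlying were dropped, repeated spots were averaged, 66 probes without a value on each array were left out, and each array's 75th percentile was subtracted on the log2 scale. limma 3.58.1 in R 4.3.3 was fitted to 41134 probes well above background on at least 2 arrays, with the experiment as a block and Benjamini-Hochberg adjustment at 0.05, and to the differences between probes of one gene. Raw signals in the text are unscaled intensities, and log2 changes are scaled.

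The pairing comes from the division of each lysate between the antibodies, and same-numbered arrays deviated together (correlation 0.206). The sources name 2 independent experiments without saying whether mice were pooled, so p-values rest on these experiments and not on counted mice. limma draws each probe's variance toward that of all tested probes, so a p-value does not measure only that probe's own spread. For the Bdnf probe the SD between experiments was 0.011 and limma's SE was 0.277. An exact permutation test of 2 arrays against 2 cannot go below p = 0.333, and the precision of every value is limited by having 4 arrays. Genes and lists were chosen with earlier results of these data known. The text names every probe of the 7 genes, and of the list up to 3 genes per role and direction with the largest change past the threshold, with Gapdh and Cpeb2. Some genes of the list are counted but not reported here by name. Alternatives covered scaling, background correction, GC bins, marked spots, the block, an intensity trend, filters on dim probes and single arrays left out. Python 3.11.15 with pandas 2.3.3 and matplotlib 3.10.9 was used for sequences and figures.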

Additional observations from a re-analysis of the deposited data

How the results depend on the processing

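With scaling, background correction, marked spots, the intensity trend, the block and stricter filters varied one at a time, the number of neurotrophin probes called higher stayed at 7 or 8 and the number called lower at 1, except that centring within GC bins gave 8 higher and 0 lower. Taking only the brightest probe of each gene gave 5 and 0, with the lower probe of Sort1 not tested. With no filter 0 probes and 0 pathway genes were called in either direction, with 9 probes and 26 pathway genes at an unadjusted p under 0.05 in limma. The cause was not tested. Without the replicate block 8 probes were higher and 1 lower, 9 of the 12 pairs of probes differed and 17 pathway genes were higher and 7 lower. Leaving out 1 array, in a fit without the experiment term in which the lone array of an antibody is assumed to vary like the others, gave 4 to 7 probes higher, 0 to 1 lower, 0 to 7 pairs that differed, and 7 to 16 pathway genes higher with 3 to 6 lower. Called log2 changes kept their direction in every alternative run. Signs turned for changes that had not passed, namely A_55_P2056533 of Ntrk3 (0.056 after median centring, 0.062 within GC bins, and -0.517 to 0.174 with 1 array left out), A_55_P2006792 of Ntrk2 (0.12 within GC bins), A_51_P517145 of Sort1 (0.005 within GC bins) and the Ngfr probe (-0.019 without control IgG array 1, 0.385 at the highest with 1 array left out, and -0.157 or 0.523 in a single experiment). The study's limits on fold and signal, as read here, were passed by 5 to 8 probes over all settings tried. Low signals of the Ngfr probe, of A_55_P2056533 and of A_51_P517145 limit what can be seen there.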
